A study of Mus musculus with 14 samples.

Results

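Knockdown of TP53INP2 was examined in 3T3-L1 preadipocytes at day 0, before differentiation was induced. The samples are the 6 day 0 arrays of a series of 14, and were chosen by the genotype and time in their labels: 3 control arrays and 3 knockdown arrays, each group numbered 1 to 3. The line 3T3-L1 is an established mouse fibroblast line that is committed to the fat lineage and fills with lipid after hormonal induction. Both groups had been transduced with lentivirus, which carried a scrambled siRNA sequence in the controls and a TP53INP2 siRNA sequence in the knockdown cells. Both had been held for 2 days after confluence in proliferation medium. By design the groups thus differed in the siRNA sequence, and whether they carried equal amounts of virus was not tested. The samples used here hold no second siRNA sequence, rescue or untransduced cells, whether the cells were pools or clones is not given in the sources used here, and nothing in the labels says that the replicates came from separate cultures. The p-values thus cover the spread of these arrays alone, which may be technical. A lasting difference between the transduced populations and the effect of lower TP53INP2 cannot be told apart. The other 8 arrays, 4 control and 4 knockdown at day 7 of differentiation, served to steady the estimate of the spread and to compare the knockdown effect between the days.

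TP53INP2, also called DOR, is a small protein that shuttles between the nucleus and the cytoplasm. In the cytoplasm it binds ATG8-family proteins such as LC3 and GABARAP and takes part in the formation of autophagosomes, the vesicles that deliver cell contents to lysosomes. In the nucleus it is known as a coactivator of thyroid hormone receptors, and in fat precursors it has been described as a restraint on adipogenesis that involves the sequestration of GSK3 and the activity of beta-catenin, the effector of canonical Wnt signalling. The comparison asks which genes differ between preadipocytes with and without the knockdown before any adipogenic hormone is given.

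Values are log2 expression values, so a difference of 1 is a 2-fold change, and a fold change given with ± carries its standard error from the fit. Each of 18193 genes was represented by 1 probe set, and a change was called where limma's p, adjusted over all of them by Benjamini and Hochberg's method, was under 0.05. The 3 control arrays lay close to one another (median over genes from 7.19 to 7.22), and the 3 knockdown arrays lay lower, from 6.96 to 7.10. Over all probe sets the knockdown arrays were not lower, with medians of 5.55, 5.57 and 5.46 against 5.44, 5.49 and 5.45 in controls. The gap between 3' and 5' control probe sets, a measure of how much of a transcript was copied, was smaller in knockdown arrays for beta-actin (2.74 to 3.23 against 3.32 to 3.76) and Gapdh (1.59 to 1.90 against 2.02 to 2.43), larger for pyruvate carboxylase (3.30 to 4.19 against 2.42 to 2.91) and on both sides of the controls for the transferrin receptor. Their part in the results was not tested. Arrays numbered 3 stood apart from arrays 1 and 2 in both groups: the SD of the difference over the brighter genes was 0.25 between controls 1 and 2 and 0.22 between knockdown arrays 1 and 2, against 0.32 to 0.43 when array 3 of the same group was involved. For the mitosis, S phase, interferon, adipocyte marker, immediate early and complement lists, results are also given without both arrays numbered 3. For most single genes that fit is not given. A value with the replicate block comes from a fit in which control and knockdown arrays of the same number and day are compared with each other. That the numbers pair the arrays was read from these same values and is not stated in the labels.

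The targeted transcript fell. Trp53inp2 read 12.45, 12.53 and 12.38 in controls and 11.06, 11.14 and 11.66 in knockdown arrays. Every knockdown value lay below every control value, and knockdown array 3 kept the highest level of the 3. The log2 fold change was -1.17 ± 0.15, adjusted p = 0.00205, a 2.25-fold reduction. With each array left out in turn it ranged from -1.36 to -1.06 and stayed called, while with replicates 1 and 2 averaged into 1 sample it was -1.06 (adjusted p = 0.165). A second, dim probe set of the gene differed by 0.20, and the mean over both gave -0.48 (adjusted p = 0.105). Trp53inp1, which encodes the related stress-induced protein, did not pass (-0.05 ± 0.19, adjusted p = 0.946), and its sign depended on the probe set chosen (1.01 by the more variable one).

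Among the proteins that TP53INP2 works with, few transcripts differed. Of 11 TP53INP proteins and ATG8 partners, Trp53inp2 itself fell and 10 did not pass. Gabarapl1, an ATG8-family gene and the highest of these differences, read 11.36, 11.58 and 11.57 in controls and 11.82, 11.85 and 11.77 in knockdown arrays and had 0.31 ± 0.16, adjusted p = 0.391; it was named after its values were seen. Of 35 autophagy genes 1 rose, Wipi2, whose product reads phosphoinositides on the forming autophagosome, with 8.21, 8.05 and 8.09 in controls and 8.71, 8.68 and 8.71 in knockdown arrays (0.58 ± 0.13, adjusted p = 0.0355). The call was lost without any 1 of the 6 arrays (adjusted p up to 0.116), and the most variable of its 3 probe sets gave -0.15. None of 30 lysosome genes passed by limma (3 without adjustment, 1 with the replicate block). The largest differences there were in the protease genes Ctsh (-2.83 ± 0.71, adjusted p = 0.0655, and 0.0165 with the replicate block) and Ctsk (0.67 ± 0.32, adjusted p = 0.347). The groups did not overlap for Ctsh, at 7.72, 7.66 and 7.01 in controls and 5.32, 4.73 and 3.85 in knockdown arrays. Whether Ctsh passed depended on the probe set. Its other one differed by -2.40 and passed by limma over all probe sets (adjusted p = 0.00368), and the mean over both passed (-2.62, adjusted p = 0.0197).

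Across all genes, 328 of 18193 were called (1.8%): 85 higher (0.467%) and 243 lower (1.34%) in knockdown cells, 35 and 111 of them by at least 2-fold. Without adjustment 2808 of the 18193 genes had a p under 0.05, which is the base for the unadjusted counts given with the lists below. In all 328 the 3 knockdown values lay on 1 side of the 3 control values, as they did in 1254 higher genes (6.89%) and 2851 lower genes (15.7%) over the whole array. The called differences had a median size of 0.92, the smallest being 0.32. The excess of falls depends on the scaling and on the probe set that stands for a gene. Lower genes were 74.1% of the calls as deposited, 85.6% with arrays shifted to 1 median over all probe sets, 52.1% after quantile normalization and 51.1% where the most variable probe set stood for each gene. They were 29.8% (262 higher, 111 lower) with arrays shifted to 1 median over genes. The 2 shifts moved the median over all genes from -0.05 to -0.12 and to 0.11. With every probe set tested, named or not, 37.2% of 1260 calls were lower. The number of calls moved with single arrays, from 101 without knockdown array 2 to 631 without knockdown array 3, and was 104 without control 1, 113 without knockdown array 1, 160 without control 2 and 180 without control 3. Without knockdown array 3 the calls were 216 higher (1.19% of all genes) and 415 lower (2.28%). The number was 844 with the replicate block (225 higher, 1.24% of all genes, and 619 lower, 3.4%), which kept 302 of the 328, and 24 with replicates 1 and 2 averaged, all of them among the 328. Without both arrays numbered 3 it was 371 (114 higher, 0.627%, and 257 lower, 1.41%), 176 of them among the 328. A looser block, in which the day 0 and day 7 arrays of a number share 1 term, gave 572 calls (160 higher, 0.879%, and 412 lower, 2.26%). The shares of all genes in each fit are the base for the counts of called list members given below.

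**Figure D1:**
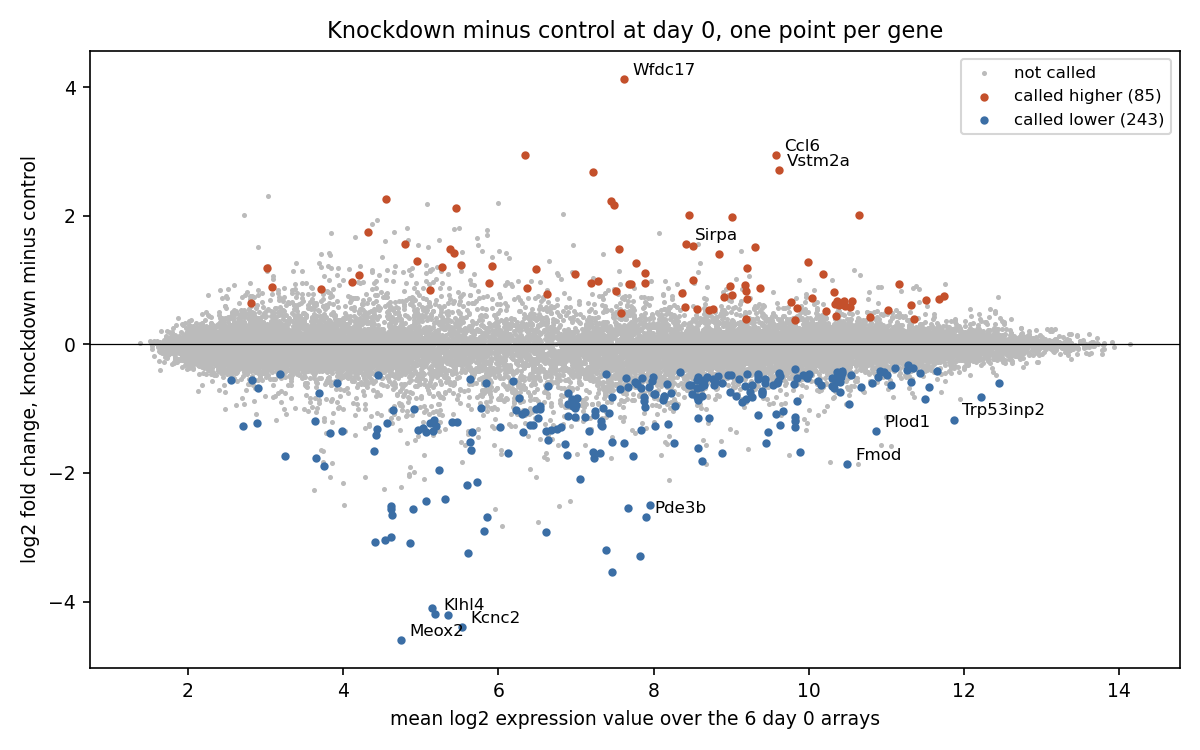
Mean log2 expression value over the 6 day 0 arrays (x axis) against the log2 fold change, knockdown minus control (y axis), for each of the 18193 genes; orange points are the 85 genes called higher, blue points the 243 called lower, and grey points the rest. Meox2, Kcnc2 and Klhl4, which are among the largest falls, sit at the dim side between -4.59 and -4.19, while Trp53inp2 is among the brightest called genes at -1.17.

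The largest falls took transcripts of moderate level close to the bottom of the scale, which ran from 1.13 to 14.37 over the whole table. Meox2, a homeobox transcription factor of mesenchymal lineages, read 7.52, 6.72 and 6.90 in controls and 2.16, 2.91 and 2.28 in knockdown arrays. It was 24.1-fold lower (-4.59 ± 0.51, adjusted p = 0.000861), and its second probe set differed by -2.83 and also passed. Kcnc2, which encodes a voltage-gated potassium channel subunit, read 7.97, 7.74 and 7.49 in controls and 3.70, 2.78 and 3.53 in knockdown arrays. It was 21.1-fold lower (-4.40 ± 0.40, adjusted p = 0.000306). For both genes the groups lay far apart on every array. Klhl4, a Kelch-repeat gene, read 7.23, 7.27 and 7.33 in controls and 3.33, 2.71 and 3.22 in knockdown arrays (-4.19 ± 0.35, adjusted p = 0.000157), with the 3 controls close together (SD 0.05). Itm2a, which encodes a small membrane glycoprotein, read 6.88, 7.43 and 7.26 in controls and 3.01, 2.70 and 3.55 in knockdown arrays (-4.10 ± 0.43, adjusted p = 0.000596). These 4 calls held without each array in turn, and those of Kcnc2, Klhl4 and Itm2a held with replicates 1 and 2 averaged; Meox2 then had adjusted p = 0.0671. Other probe sets of Klhl4 and Itm2a moved less, by -0.57 and -1.45.

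**Figure D2:**
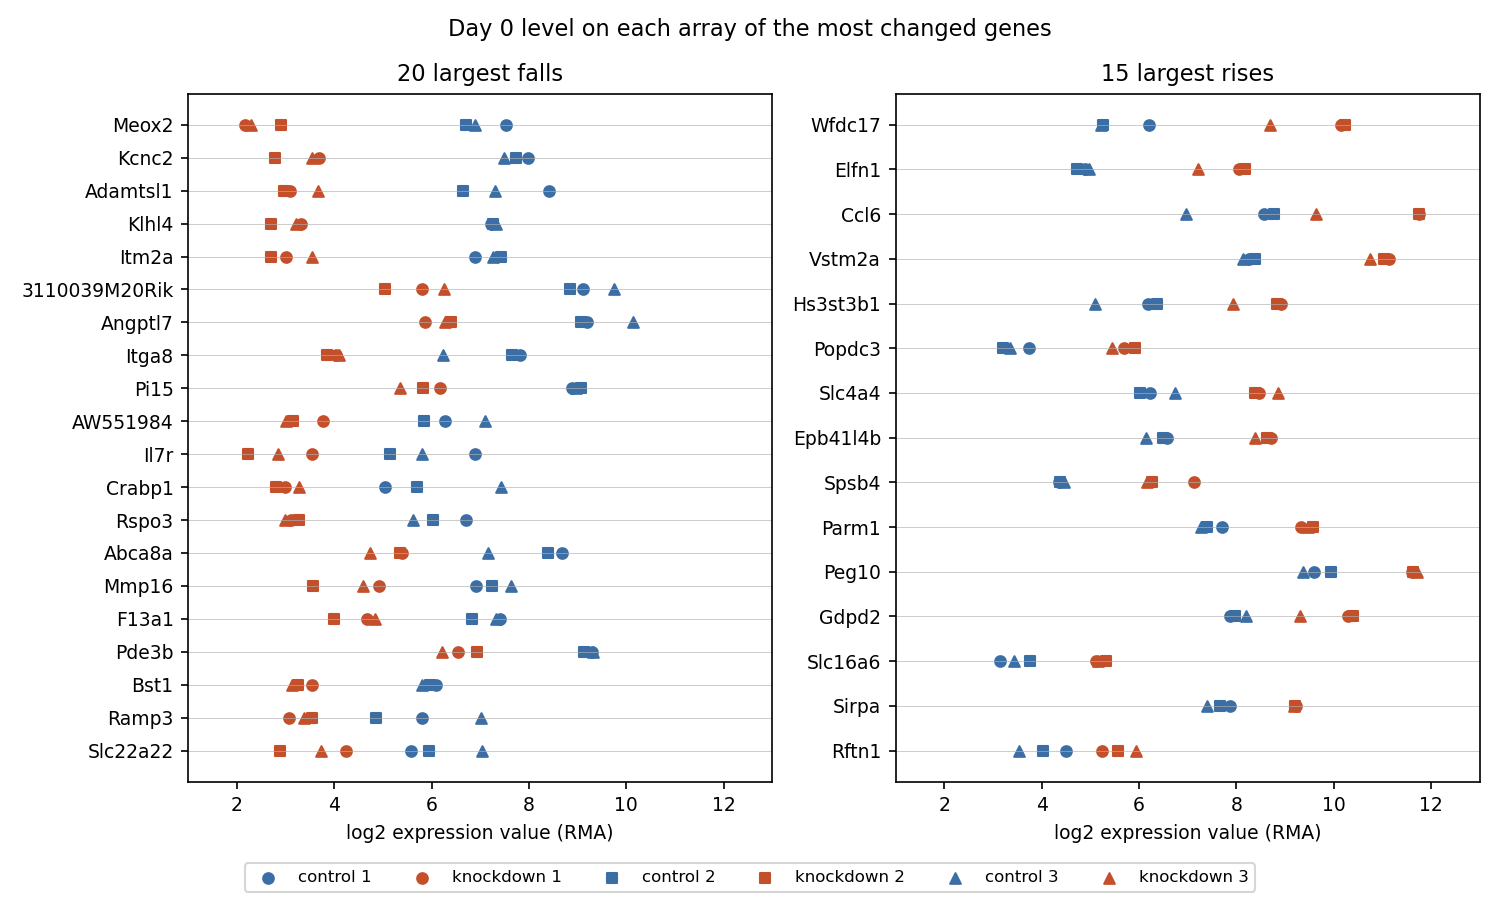
Log2 expression value (x axis) of the 20 called genes with the largest falls (left) and the 15 with the largest rises (right) on each day 0 array; blue marks controls and orange knockdown arrays, with circles for array 1, squares for array 2 and triangles for array 3. In every row the colours are separate, and for the chemokine gene Ccl6 both arrays numbered 3 (6.97 and 9.63) sit below the other arrays of their group.

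Homeobox genes pattern tissues and mark the position of origin of fibroblasts. Of 62 HOX, MEOX and other homeobox genes measured, 4 fell (1.34% of all genes did), 0 rose and 58 did not pass. The list median was -0.09 against -0.05 over all genes. These medians became 0.08 and 0.11 with arrays shifted to 1 median over genes. Beside Meox2, Hoxc4 read 5.83, 5.29 and 6.38 in controls and 4.34, 4.13 and 4.98 in knockdown arrays (-1.35 ± 0.30, adjusted p = 0.0403). Emx2, better known from the developing brain and urogenital tract, read 8.21, 8.11 and 8.19 in controls and 7.53, 7.37 and 7.59 in knockdown arrays (-0.67 ± 0.11, adjusted p = 0.0077). Pbx2, a cofactor that binds DNA together with HOX proteins, read 10.56, 10.36 and 10.48 in controls and 9.90, 9.75 and 9.85 in knockdown arrays (-0.63 ± 0.09, adjusted p = 0.00596). The fall of Pbx2 was small beside that of Meox2 and was seen in all 3 pairs, but its other 2 probe sets differed by -0.26 and -0.05, and with the mean over probe sets the call was lost (-0.31, adjusted p = 0.252). The Hoxc4 call was lost without controls 1 or 3 or knockdown arrays 1 or 2 (adjusted p up to 0.158). Hoxc8, named after its values were seen, had the largest opposite value of the list, with 2.42, 2.86 and 5.13 in controls and 4.41, 4.64 and 7.16 in knockdown arrays. Its groups overlapped and it did not pass (1.93 ± 1.12, adjusted p = 0.454), although the same-number differences were 1.98, 1.78 and 2.04, since control 3 and knockdown array 3 both read higher than the other arrays of their group.

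Extracellular matrix genes, which give the tissue its fibres and bind growth factors, contributed single large falls. Adamtsl1 encodes a secreted glycoprotein related to ADAMTS proteases but without their catalytic part. It read 8.41, 6.65 and 7.31 in controls and 3.10, 2.97 and 3.67 in knockdown arrays (-4.21 ± 0.47, adjusted p = 0.00082), and its other 2 probe sets differed by -1.28 and -0.33. Mmp16, a membrane-bound metalloproteinase gene, read 6.92, 7.24 and 7.63 in controls and 4.93, 3.56 and 4.58 in knockdown arrays (-2.91 ± 0.44, adjusted p = 0.00596). These were the 2 called genes among 38 metalloproteinases, ADAMTS proteins and inhibitors, whose list median was 0.04 (-0.02 with arrays shifted to 1 median over all probe sets). Fmod, for fibromodulin, a small proteoglycan that organises collagen fibrils, was bright and read 11.66, 11.46 and 11.14 in controls and 9.59, 9.77 and 9.33 in knockdown arrays (-1.86 ± 0.27, adjusted p = 0.00456). All 5 of its other probe sets passed too, with differences from -2.07 to -1.66. Mfap5, a microfibril glycoprotein gene, read 7.81, 7.48 and 7.60 in controls and 6.03, 6.26 and 5.94 in knockdown arrays (-1.55 ± 0.30, adjusted p = 0.0221) and lost its call without any 1 array other than knockdown array 3 (adjusted p up to 0.094). Abca8a, an ABC transporter gene and not a matrix gene, was one of the 20 largest falls, at 8.67, 8.40 and 7.15 in controls and 5.40, 5.35 and 4.73 in knockdown arrays (-2.91 ± 0.38, adjusted p = 0.00205). The other 2 unplaced genes of the 20 have no assigned name, 3110039M20Rik (-3.54 ± 0.71, adjusted p = 0.0286) and AW551984 (-3.10 ± 0.58, adjusted p = 0.02). The calls of these unnamed genes were lost without any 1 array other than knockdown array 3 (adjusted p up to 0.124) and without controls 1 or 3 or knockdown array 2 (adjusted p up to 0.0848).

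Of 34 collagen genes 2 fell (1.34% of all genes did) and 32 did not pass. Col11a1, a minor fibrillar collagen typical of cartilage, read 10.99, 11.01 and 10.17 in controls and 9.10, 9.07 and 8.96 in knockdown arrays (-1.67 ± 0.34, adjusted p = 0.0276). Col5a3, which joins collagen V fibrils, read 10.33, 10.33 and 9.90 in controls and 9.21, 9.35 and 8.89 in knockdown arrays (-1.04 ± 0.22, adjusted p = 0.0334). The call of Col11a1 was lost without controls 1 or 2 or knockdown arrays 1 or 2 (adjusted p up to 0.12) and that of Col5a3 without any 1 array other than control 3 (adjusted p up to 0.132). With the replicate block 4 collagen genes fell (3.4% of all genes did). Col1a1, the main collagen of fibroblasts, read 13.87, 13.85 and 13.75 in controls and 13.74, 13.76 and 13.70 in knockdown arrays (-0.09 ± 0.14, adjusted p = 0.839) and was added to the named genes after its values were seen. The mixed list of 28 osteogenic and chondrogenic genes held Col11a1 and 2 rises, Matn4, a cartilage matrix gene (0.98 ± 0.16, adjusted p = 0.00806), and Mkx, a tendon transcription factor gene (0.62 ± 0.13, adjusted p = 0.0378; lost without any 1 array other than control 3 (adjusted p up to 0.146)). Plod1, which hydroxylates lysines of collagen chains so that they can be cross-linked, was among the brightest called genes, at 11.61, 11.86 and 11.16 in controls and 10.20, 10.22 and 10.16 in knockdown arrays (-1.35 ± 0.15, adjusted p = 0.000885). Its other probe set differed by -0.31, and with the mean over both the call was lost (-0.83, adjusted p = 0.0835). Angptl7, a secreted angiopoietin-like protein gene, read 9.20, 9.07 and 10.13 in controls and 5.86, 6.39 and 6.27 in knockdown arrays (-3.29 ± 0.56, adjusted p = 0.0128). Its call was lost without knockdown array 1 (adjusted p up to 0.0612). None of 19 basement membrane genes passed by limma (4 without adjustment, 0 with the replicate block), the furthest being Lama2 (-1.02 ± 0.74, adjusted p = 0.571) and Lamb2 (0.56 ± 0.23, adjusted p = 0.252).

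Integrins anchor cells to this matrix. Of 24 integrin genes 2 fell (1.34% of all genes did), 0 rose and 22 did not pass. The list median was -0.20 (-0.04 with arrays shifted to 1 median over genes). In 9 of the 24 all knockdown values lay below the controls (15.7% of all genes). Itga8, the alpha chain of a receptor for nephronectin and fibronectin, read 7.82, 7.65 and 6.23 in controls and 4.04, 3.85 and 4.09 in knockdown arrays (-3.24 ± 0.43, adjusted p = 0.00265), but its second probe set differed by only -0.16. Itga10, the alpha chain of a collagen receptor of cartilage, read 8.64, 8.43 and 7.38 in controls and 6.49, 6.44 and 6.44 in knockdown arrays (-1.70 ± 0.27, adjusted p = 0.00757). Control 3 was the lowest control for both genes and still lay above every knockdown value. With the replicate block 4 integrin genes passed, all lower (3.4% of all genes were lower). Of 48 cadherins and other adhesion genes 1 fell, the protocadherin gene Pcdh15 (-1.77 ± 0.28, adjusted p = 0.0077), and the axon guidance list, which holds ligands and receptors that many mesenchymal cells also use, had 1 of 58 lower and 1 higher. These were Sema5a, a transmembrane semaphorin gene, whose groups did not overlap (-1.76 ± 0.28, adjusted p = 0.0081), and the ephrin gene Efna5, with 9.95, 9.95 and 10.34 in controls and 10.62, 10.82 and 10.64 in knockdown arrays (0.61 ± 0.13, adjusted p = 0.035). Sema5a lost its call without control 1 or knockdown array 2 (adjusted p up to 0.0515) and with its most variable probe set (-0.61, adjusted p = 0.486). Efna5 lost it without controls 1 or 2 or knockdown arrays 1 or 2 (adjusted p up to 0.148) and with the mean over its probe sets (0.35, adjusted p = 0.169), the other one differing by 0.09.

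Ion transport genes moved in both directions. Of 39 potassium channel genes 3 fell: Kcnc2 (above), Kcnj15, an inward rectifier gene, and Kcnma1, the large-conductance calcium-activated channel gene. Kcnj15 read 5.73, 5.68 and 6.21 in controls and 3.84, 3.32 and 2.91 in knockdown arrays (-2.52 ± 0.47, adjusted p = 0.0194) and Kcnma1 read 6.90, 6.96 and 7.22 in controls and 5.55, 5.82 and 5.97 in knockdown arrays (-1.25 ± 0.24, adjusted p = 0.0236). The call of Kcnj15 was lost without controls 1, 2 or 3 or knockdown array 2 (adjusted p up to 0.0785) and that of Kcnma1 without any 1 array other than knockdown array 3 (adjusted p up to 0.1). The other probe sets of Kcnj15 moved by -0.35 and -0.19, and those of Kcnma1 included one at 0.78, so that its mean over probe sets was -0.02 (adjusted p = 0.977). Scn7a, an atypical sodium channel gene, fell among 38 calcium, sodium and chloride channels, at 9.45, 9.34 and 9.79 in controls and 7.35, 7.67 and 8.13 in knockdown arrays (-1.81 ± 0.37, adjusted p = 0.0318). It lost its call without any 1 array other than knockdown array 3 (adjusted p up to 0.121). Slc4a4, the sodium bicarbonate cotransporter gene, rose as the single called member of 23 bicarbonate transport and carbonic anhydrase genes. It read 6.23, 6.02 and 6.75 in controls and 8.46, 8.38 and 8.85 in knockdown arrays (2.23 ± 0.27, adjusted p = 0.00149), and held without each array in turn. Its other 4 probe sets differed by -0.30 to 0.87.

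In the Wnt system, which keeps preadipocytes undifferentiated, 3 of 50 ligand, receptor and antagonist genes fell, 0 rose and 47 did not pass, with a median of -0.03 (0.13 with arrays shifted to 1 median over genes). Rspo3, which amplifies Wnt signals by sparing their receptors from turnover, read 6.71, 6.02 and 5.61 in controls and 3.11, 3.27 and 2.98 in knockdown arrays (-3.00 ± 0.58, adjusted p = 0.0245). This call was lost without controls 1 or 2 or knockdown arrays 1 or 2 (adjusted p up to 0.109). Dkk3, a Dickkopf-family secreted protein gene, read 8.63, 7.89 and 8.13 in controls and 6.88, 6.71 and 6.52 in knockdown arrays (-1.51 ± 0.34, adjusted p = 0.046). The call was lost without any 1 of the 6 arrays (adjusted p up to 0.176). Wnt2b was near the bottom of the scale, at 3.02, 3.14 and 3.12 in controls and 2.52, 2.48 and 2.63 in knockdown arrays (-0.55 ± 0.08, adjusted p = 0.00448). Of 30 beta-catenin and GSK3 genes and targets 1 rose and 1 fell. Lgr4, the receptor for R-spondins, was bright and read 11.36, 11.12 and 11.02 in controls and 12.03, 11.82 and 11.72 in knockdown arrays (0.69 ± 0.12, adjusted p = 0.0156). This call was lost without controls 2 or 3 or knockdown arrays 1 or 2 (adjusted p up to 0.0747). Bambi, a Wnt target that acts as a decoy receptor for BMP and TGF-beta, read 6.89, 6.85 and 7.24 in controls and 5.70, 5.26 and 5.93 in knockdown arrays (-1.36 ± 0.18, adjusted p = 0.00205) and held without each array. Rspo3 and its receptor gene Lgr4 therefore moved in opposite directions. The single other fall in 51 BMP and TGF-beta genes was the type I receptor gene Acvrl1 (-1.18 ± 0.27, adjusted p = 0.0478), which lost its call without any 1 of the 6 arrays (adjusted p up to 0.17).

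Cytokine genes had 1 call and many small differences in the same direction. Of 46 cytokine and receptor genes 1 fell and 45 did not pass, with a median of -0.15 (0.01 with arrays shifted to 1 median over genes). A value above 0 was found in 11 of them (23.9%, against 40.2% of all genes), and in 13 all knockdown values lay below the controls, against 15.7% of all genes. The pair differences of the list mean were -0.34, -0.30 and -0.33, and 6 fell with the replicate block (3.4% of all genes) and 3 with the block over both days (2.26%). Il7r, the receptor chain shared by interleukin 7 and thymic stromal lymphopoietin, was the called member, at 6.90, 5.15 and 5.80 in controls and 3.54, 2.22 and 2.85 in knockdown arrays (-3.08 ± 0.44, adjusted p = 0.00389), and it also passed with replicates 1 and 2 averaged (adjusted p = 0.023). Pi15, a secreted protease inhibitor of the CAP family, read 8.89, 9.08 and 8.97 in controls and 6.17, 5.82 and 5.34 in knockdown arrays (-3.20 ± 0.33, adjusted p = 0.000588). F13a1, the transglutaminase subunit of coagulation factor XIII, read 7.41, 6.84 and 7.32 in controls and 4.67, 3.99 and 4.84 in knockdown arrays (-2.69 ± 0.25, adjusted p = 0.000306). Igfbp4, which binds insulin-like growth factors and was the called gene of 19 in that system, read 11.94, 11.83 and 11.99 in controls and 11.09, 10.95 and 11.17 in knockdown arrays (-0.85 ± 0.13, adjusted p = 0.00757), and all 5 other probe sets passed in the same direction. Gfra1, a co-receptor for glial cell line-derived neurotrophic factor, fell among 44 receptor tyrosine kinase genes (-1.36 ± 0.27, adjusted p = 0.0248; lost without controls 1 or 2 or knockdown arrays 1 or 2 (adjusted p up to 0.109)). Fgf21, an endocrine growth factor, was close to the bottom of the scale, with 4.24, 3.92 and 4.01 in controls and 3.04, 3.73 and 3.14 in knockdown arrays (-0.75 ± 0.16, adjusted p = 0.0355, and 0.0584 with the replicate block). The call was also lost without any 1 array other than knockdown array 2 (adjusted p up to 0.149). Cd300lb, named for its low adjusted p and known as an activating receptor of myeloid cells, read 8.91, 9.16 and 8.75 in controls and 5.94, 6.50 and 6.73 in knockdown arrays (-2.55 ± 0.20, adjusted p = 0.000157).

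In intracellular signalling, 2 of 36 genes of cyclic nucleotide signalling fell and 0 rose. Pde3b degrades cyclic AMP and is the phosphodiesterase through which insulin restrains lipolysis. It read 9.29, 9.13 and 9.32 in controls and 6.55, 6.93 and 6.21 in knockdown arrays (-2.68 ± 0.25, adjusted p = 0.000306). Pde8b, a cyclic AMP-specific phosphodiesterase, read 7.71, 6.90 and 7.62 in controls and 6.14, 6.26 and 5.87 in knockdown arrays (-1.32 ± 0.19, adjusted p = 0.00379). Both phosphodiesterase calls held without each array in turn and with replicates 1 and 2 averaged (adjusted p = 0.0363 and 0.0481), but that of Pde8b was lost with its other, more variable probe set (-0.69, adjusted p = 0.106). Ramp3, a partner of the calcitonin receptor-like receptor, read 5.80, 4.86 and 7.02 in controls and 3.07, 3.55 and 3.37 in knockdown arrays (-2.57 ± 0.57, adjusted p = 0.0429). The call was lost without any 1 array other than control 2 (adjusted p up to 0.135). Ramp3 was 1 of 10 called G protein coupled receptors and partners, grouped after their values were seen, of which 5 fell and 5 rose. Their membership was settled by the calls, so these counts describe the calls only. The lysophosphatidic acid receptor gene Lpar4 (-1.36) and the sphingosine 1-phosphate receptor gene S1pr1 (-1.33) were lower, and the serotonin receptor gene Htr2b (0.94) and Ramp1 (0.87), another partner of the same receptor as Ramp3, were higher. The call of Lpar4 was lost without controls 1 or 2 or knockdown arrays 1 or 2 (adjusted p up to 0.0838), that of S1pr1 without any 1 of the 6 arrays (adjusted p up to 0.134) and that of Htr2b without controls 1 or 2 or knockdown arrays 1 or 2 (adjusted p up to 0.165) and with the replicate block (0.0755). Pla2g4a, the phospholipase that releases arachidonic acid, was the called gene of 21 prostaglandin genes, at 10.84, 10.82 and 10.67 in controls and 9.94, 9.82 and 10.33 in knockdown arrays (-0.75 ± 0.16, adjusted p = 0.0344). This call was lost without any 1 array other than knockdown array 3 (adjusted p up to 0.144).

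Vitamin A and thyroid hormone both act through nuclear receptors that partner with RXR. Crabp1, the cellular retinoic acid binding protein gene, fell as the called member of 23 retinoid genes, at 5.05, 5.70 and 7.44 in controls and 3.00, 2.80 and 3.27 in knockdown arrays (-3.04 ± 0.43, adjusted p = 0.00389). The controls differed widely here, with control 3 highest at 7.44, while the 3 knockdown values lay together near the bottom of the scale. Dio2, the deiodinase that makes active thyroid hormone inside the cell, read 6.67, 6.63 and 6.22 in controls and 3.86, 3.94 and 4.53 in knockdown arrays (-2.40 ± 0.29, adjusted p = 0.00129), and its other probe sets differed by -0.61 and -0.26. With Fgf21 it made up the 2 called genes of the thyroid hormone response list, 17 of 19 not passing. Dio2 is also the called gene of 21 brown and beige markers. The receptor gene Thra read 11.21, 11.07 and 11.19 in controls and 11.02, 10.99 and 10.76 in knockdown arrays and did not pass (-0.24 ± 0.13, adjusted p = 0.403); it was named after its values were seen.

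The largest rise was in Wfdc17, which encodes a small secreted protein of the whey acidic protein family. It read 6.20, 5.26 and 5.22 in controls and 10.15, 10.23 and 8.68 in knockdown arrays, a 17.5-fold difference (4.13 ± 0.78, adjusted p = 0.022). Ccl6, a mouse chemokine gene, rose from a moderate to a high level, with 8.56, 8.77 and 6.97 in controls and 11.75, 11.76 and 9.63 in knockdown arrays (2.95 ± 0.62, adjusted p = 0.0332), and its second probe set gave 3.33. It was the called gene of 31 chemokine ligand genes. Elfn1, known as a synaptic leucine-rich repeat protein gene, read 4.90, 4.73 and 4.96 in controls and 8.05, 8.18 and 7.21 in knockdown arrays (2.95 ± 0.60, adjusted p = 0.0298). The groups did not overlap for these 3 genes, array 3 was the lowest knockdown array for each, and their calls were lost without any 1 array other than knockdown array 3 (adjusted p up to 0.141).

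Vstm2a, a secreted immunoglobulin-domain protein known to favour commitment of preadipocytes, read 8.25, 8.39 and 8.13 in controls and 11.14, 11.03 and 10.74 in knockdown arrays (2.71 ± 0.26, adjusted p = 0.000306). Hs3st3b1, which adds 3-O-sulfate groups to heparan sulfate and was the called gene of 34 heparan sulfate enzymes and proteoglycans, read 6.18, 6.37 and 5.10 in controls and 8.92, 8.84 and 7.93 in knockdown arrays (2.68 ± 0.34, adjusted p = 0.00205), though its other 3 probe sets differed by 0.15 to 0.28. Sirpa, the receptor for the CD47 signal on neighbouring cells, read 7.86, 7.66 and 7.39 in controls and 9.21, 9.20 and 9.19 in knockdown arrays (1.56 ± 0.11, adjusted p = 5.74e-05), the lowest adjusted p of all 18193 genes; the 3 knockdown arrays were nearly identical. Of its other 2 probe sets 1 gave 1.06 and the other 0.04. Parm1, a mucin-like membrane protein gene, read 7.70, 7.39 and 7.26 in controls and 9.34, 9.57 and 9.47 in knockdown arrays (2.01 ± 0.20, adjusted p = 0.000354), with a second probe set at 1.74. Peg10, an imprinted gene derived from a retrotransposon, was the brightest of the 15 largest rises, at 9.60, 9.95 and 9.36 in controls and 11.61, 11.62 and 11.71 in knockdown arrays (2.01 ± 0.27, adjusted p = 0.00258). Epb41l4b, a FERM-domain gene (2.17), Spsb4, an adaptor of ubiquitin ligases (2.12), and Slc16a6, a monocarboxylate transporter gene (1.75), rose as well, and each of these 8 calls held without each array in turn. Popdc3 (2.26), a Popeye-domain gene whose products bind cyclic AMP, had an adjusted p of 0.0424 (0.0627 with the replicate block) and lost its call without any 1 array other than knockdown array 3 (adjusted p up to 0.15).

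Cell division genes were lower in 2 of the 3 pairs. At confluence preadipocytes stop dividing, and adipogenic hormones later drive them through further divisions. Of 35 mitosis and spindle genes 0 had a log2 fold change above 0, where 40.2% of all genes did, and the median was -0.80 against -0.05, but 1 gene fell and 34 did not pass. That gene was Cdc25c, the phosphatase that releases the brake on mitotic entry, with 6.89, 6.63 and 7.08 in controls and 5.82, 5.34 and 6.30 in knockdown arrays (-1.04 ± 0.20, adjusted p = 0.022). Its call was lost without controls 1 or 3 or knockdown arrays 1 or 2 (adjusted p up to 0.0838) and with its other probe set (-0.84, adjusted p = 0.145). Without adjustment 26 of the 35 had a p under 0.05 by limma, where 2808 of all 18193 genes did. The list mean was 7.94, 7.92 and 8.02 in the controls and 6.76, 6.85 and 7.99 in the knockdown arrays. Knockdown arrays 1 and 2 thus lay well below every control, and knockdown array 3 lay among the controls: in pairs 1 and 2 all 35 members were lower, in pair 3 it was 18 of 35, and the pair differences of the list mean were -1.18, -1.08 and -0.03. Knockdown array 3 also had the highest Trp53inp2 level of the knockdown arrays and a transferrin receptor gap between 3' and 5' probe sets of 4.14, against 1.63 and 2.41 in the others; the part of either in this result was not tested. Without both arrays numbered 3 the median was -1.16 and 22 of the 35 fell, against 1.41% of all genes lower in that fit, and without knockdown array 3 alone 29 fell (2.28% of all genes lower). With the replicate block on all arrays 10 fell (3.4% of all genes lower), and with the block over both days 1 fell (2.26%).

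Cenpf, a kinetochore protein gene and the furthest from 0 of the list, read 8.12, 7.93 and 8.53 in controls and 6.12, 6.07 and 8.03 in knockdown arrays (-1.45 ± 0.39, adjusted p = 0.0866, and 0.0256 with the replicate block). Mki67, the proliferation marker, read 8.03, 8.18 and 8.06 in controls and 6.92, 7.05 and 8.31 in knockdown arrays (-0.66 ± 0.28, adjusted p = 0.283), and Top2a, the topoisomerase that disentangles chromosomes, read 8.90, 8.67 and 8.75 in controls and 7.34, 7.51 and 8.72 in knockdown arrays (-0.92 ± 0.26, adjusted p = 0.101). For both the controls were tight and knockdown array 3 stood at their level. These 3 genes were named after their values were seen. The S phase list had the same shape, with means of 8.80, 8.84 and 8.82 in the controls and 8.28, 8.28 and 8.87 in the knockdown arrays. Of its 38 genes 2 fell and 36 did not pass by limma (12 of the 38 had a p under 0.05 without adjustment), with a median of -0.39. Without knockdown array 3 it was 11 that fell (2.28% of all genes lower), without both arrays numbered 3 it was 5 (1.41%), with the replicate block it was 4 (3.4%), and with the block over both days it was 2 (2.26%). Dut, which keeps uracil out of DNA, read 8.84, 9.29 and 8.95 in controls and 8.13, 8.30 and 8.22 in knockdown arrays (-0.81 ± 0.14, adjusted p = 0.0132), and Rfc4, a subunit of the clamp loader, read 10.57, 10.50 and 10.79 in controls and 9.83, 9.90 and 10.17 in knockdown arrays (-0.66 ± 0.14, adjusted p = 0.0355). Both were lower in all 3 pairs, Dut losing its call without knockdown array 1 (adjusted p up to 0.0642) and Rfc4 without any 1 array other than knockdown array 3 (adjusted p up to 0.136). In RNA from whole cultures, fewer dividing cells and less of these transcripts per cell cannot be told apart. None of 15 CDK inhibitor and D cyclin genes and none of 23 p53 target genes passed by limma (3 and 0 without adjustment, 1 and 1 with the replicate block). Cdk6, a partner of D cyclins, differed by 0.53 ± 0.15, adjusted p = 0.106, so that it did not pass by the probe set used. Its other probe sets differed by 0.77 and 1.61 and passed by limma over all probe sets (adjusted p = 0.0224 and 0.0251). The mean over its probe sets passed too (0.97, adjusted p = 0.0113). The p53 target gene Eda2r differed by -0.80 ± 0.38, adjusted p = 0.345, and 0.0262 with the replicate block.

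Other called genes of the division cycle lie outside those lists and were grouped, together with Cdc25c of the mitosis list, after their values were seen. Of 7 called genes for centrosomes, the spindle and mitotic entry all were lower, Cdc25c, already counted above, among them. Cenpi, a centromere protein gene (-1.13), Cip2a, an inhibitor of protein phosphatase 2A (-1.09), Plk4, the kinase that starts centriole duplication (-0.86), and the augmin subunit gene Haus2 (-0.86) are in this group; Cip2a and Haus2 held without each array, while Cenpi and Plk4 lost their calls without any 1 array other than knockdown array 3 (adjusted p up to 0.178). Of 7 called DNA repair genes all were lower too, with the translesion polymerase gene Polh at -1.25, the Fanconi gene Fancb at -1.01, the recombination gene Rad51c at -0.96 and the nuclease gene Dclre1b at -0.82. Of these Dclre1b held without each array and the others lost their calls without any 1 array other than knockdown array 3 (up to 0.166), and a second probe set of Rad51c differed by 0.43. Since membership was settled by the calls, these counts describe the calls only. They stand beside 74.1% of all calls being lower as deposited, and 29.8% with arrays shifted to 1 median over genes.

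Cell division and antiviral genes are known to share promoter elements, so a few promoters are printed to show them, each with the RefSeq sequence of the 250 bases before the annotated start (assembly GRCm38.p6), 5' to 3' on the strand of the gene. The Cenpf promoter, at chr1:189688087-189688336 on the minus strand, is shown with the CCAAT element (searched as CCAAT on both strands) in capitals. The matches end 127 and 66 bases before the start.
Cenpf promoter: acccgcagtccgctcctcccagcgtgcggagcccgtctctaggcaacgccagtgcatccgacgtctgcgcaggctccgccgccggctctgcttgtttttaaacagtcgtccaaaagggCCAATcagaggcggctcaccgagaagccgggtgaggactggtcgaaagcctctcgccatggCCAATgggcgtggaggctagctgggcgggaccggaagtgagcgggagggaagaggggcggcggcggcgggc
Of 27 mitosis and spindle genes with a tabulated promoter, 20 hold CCAAT in this window (74.1%), against 5688 of 14452 measured genes (39.4%). A match describes the letters and shows no binding, and the share describes the list and not the knockdown.

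**Figure D3:**
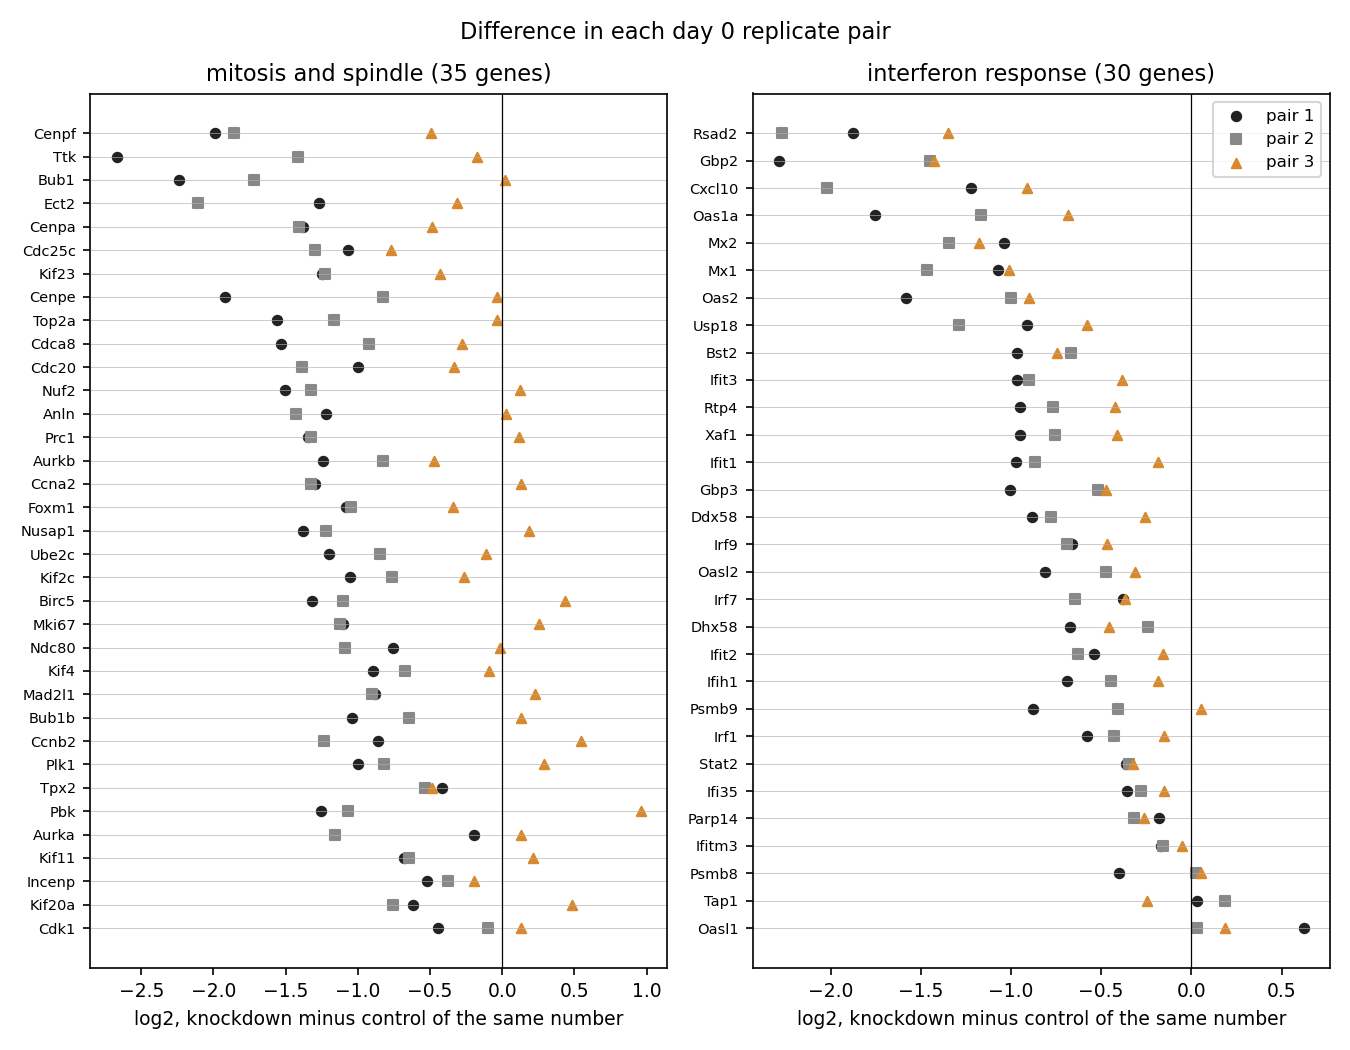
Difference in log2 expression value between the knockdown array and the control array of the same number (x axis) for 35 mitosis and spindle genes (left) and 30 interferon response genes (right); circles, squares and triangles are pairs 1, 2 and 3. Mitosis genes are below 0 in pairs 1 and 2 and spread around 0 in pair 3, whereas 27 or 28 of the 30 interferon genes are below 0 in each pair.

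Interferon response genes, which cells raise against viruses, were lower in all 3 pairs without any of them passing singly. Of 30 genes measured, 0 were called by limma (3 without adjustment), 1 had a fold change above 0 and the median was -0.62 (-0.46 and -0.69 with the 2 shifts to a common median). In 17 of them all 3 knockdown values lay below all 3 controls, where 15.7% of all genes did. The list mean was 9.69, 9.82 and 9.99 in the controls and 8.87, 9.08 and 9.53 in the knockdown arrays, so the groups did not overlap, and the pair differences were -0.81, -0.73 and -0.46. Rsad2, the gene of the antiviral enzyme viperin, read 10.75, 11.24 and 11.59 in controls and 8.87, 8.97 and 10.24 in knockdown arrays (-1.83 ± 0.90, adjusted p = 0.362, and 0.0125 with the replicate block). Gbp2, a guanylate-binding protein gene induced by interferon gamma, read 8.97, 8.60 and 9.30 in controls and 6.68, 7.15 and 7.87 in knockdown arrays (-1.72 ± 0.55, adjusted p = 0.153, and 0.00676 with the replicate block). For both genes the groups did not overlap. With the replicate block, which compares within numbers, 8 of the 30 fell, against 3.4% of all genes, namely Rsad2 (adjusted p = 0.0125), Gbp2 (0.00676), Mx1 (0.01), Bst2 (0.0126), Cxcl10 (0.012), Oas1a (0.0214), Irf9 (0.0316) and Rtp4 (0.0384). With the block over both days 1 of these passed, Gbp2 (0.0201), and Rsad2 had 0.0909. Without both arrays numbered 3 the median was -0.72 and 0 passed. At day 7, on other arrays, the median over the list was -0.68 with 0 called. None of 17 class I antigen presentation genes passed by limma (1 without adjustment, 1 with the replicate block), the furthest being the chaperone gene Pdia3 (0.47 ± 0.11, adjusted p = 0.0592, and 0.0387 with the replicate block).

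The interferon-stimulated response element was searched as GAAANNGAAA on both strands. It lies in the Rsad2 promoter at chr12:26456453-26456702 (minus strand), where the match ends 110 bases before the start, and in the Ifit1 promoter at chr19:34640639-34640888 (plus strand) at 94 and 75 bases. Ifit1, an antiviral RNA-binding protein gene, read 11.49, 11.69 and 11.67 in controls and 10.52, 10.83 and 11.49 in knockdown arrays (-0.67 ± 0.66, adjusted p = 0.703). The element is in capitals.
Rsad2 promoter: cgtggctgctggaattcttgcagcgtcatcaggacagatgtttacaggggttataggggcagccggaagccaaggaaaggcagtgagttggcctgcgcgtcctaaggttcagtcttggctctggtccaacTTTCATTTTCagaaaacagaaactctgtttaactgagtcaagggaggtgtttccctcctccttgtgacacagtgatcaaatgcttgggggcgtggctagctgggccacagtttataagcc
Ifit1 promoter: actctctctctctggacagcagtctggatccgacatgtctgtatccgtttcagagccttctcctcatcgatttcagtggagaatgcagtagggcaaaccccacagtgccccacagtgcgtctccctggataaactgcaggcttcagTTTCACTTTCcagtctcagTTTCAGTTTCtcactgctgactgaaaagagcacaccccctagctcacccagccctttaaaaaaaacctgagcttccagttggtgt
Of 23 interferon response genes with a tabulated promoter, 9 hold the element in this window (39.1%), against 453 of 14452 measured genes (3.13%). The list was made of known interferon targets, so this share describes the list and not the knockdown.

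Contractile genes and targets of SRF and YAP, transcription factors that respond to actin and stretch, also lay lower in each pair. Of 28 genes 2 fell and 26 did not pass, the median being -0.27 (-0.11 with arrays shifted to 1 median over genes), and in 13 the knockdown values all lay below the controls, against 15.7% of all genes. The pair differences of the list mean were -0.45, -0.43 and -0.32. Myl9, the regulatory light chain of non-muscle and smooth muscle myosin, read 5.76, 6.77 and 6.10 in controls and 4.53, 4.25 and 4.00 in knockdown arrays (-1.95 ± 0.40, adjusted p = 0.0311). Its call was lost without any 1 of the 6 arrays (adjusted p up to 0.108). Tagln2, an actin-bundling protein gene, read 8.39, 8.64 and 8.13 in controls and 7.73, 7.50 and 7.61 in knockdown arrays (-0.77 ± 0.16, adjusted p = 0.0285). The call was lost without controls 1 or 2 or knockdown arrays 1 or 2 (adjusted p up to 0.118). Actg2 and Acta2, the smooth muscle actin genes, named after their values were seen, were separate between groups and had log2 fold changes of -2.06 ± 0.52, adjusted p = 0.0663, and 0.0036 with the replicate block, and -1.14 ± 0.47, adjusted p = 0.265, and 0.0298 with the replicate block (0.14 for Acta2 with the block over both days). With the replicate block 7 genes of the list fell (3.4% of all genes), and 4 with the block over both days (2.26%). The serum response factor site known as the CArG box was searched on both strands and is in capitals in the Myl9 promoter at chr2:156775214-156775463 (plus strand). The match ends 151 bases before the start.
Myl9 promoter: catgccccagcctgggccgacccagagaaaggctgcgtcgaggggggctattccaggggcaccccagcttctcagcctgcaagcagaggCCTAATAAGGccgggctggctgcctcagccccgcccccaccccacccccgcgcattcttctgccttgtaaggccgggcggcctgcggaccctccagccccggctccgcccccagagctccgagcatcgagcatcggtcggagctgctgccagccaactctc
Of 24 contractile genes with a promoter 4 hold this element in the window (16.7%), against 207 of 14452 measured genes (1.43%). The list was made to hold SRF targets, so this share too describes the list and not the knockdown.

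Genes of the fat cell programme had few calls. Of 24 adipogenic transcription factor genes 1 rose (0.467% of all genes did) and 23 did not pass. The median was 0.12, and 0.28 and 0.05 with the 2 shifts to a common median. A value above 0 was found in 17 of the 24 (70.8%, against 40.2% of all genes). In 7 all knockdown values lay above the controls (6.89% of all genes), and in 1 all lay below (15.7%). The pair differences of the list mean were 0.15, 0.11 and 0.18. Klf5, which acts early in adipogenesis upstream of PPARgamma, read 7.58, 7.32 and 7.08 in controls and 8.57, 8.67 and 8.07 in knockdown arrays (1.11 ± 0.23, adjusted p = 0.0344), with another probe set at 1.64; the call was lost without any 1 array other than knockdown array 3 (adjusted p up to 0.144). Pparg, the master regulator, read 10.92, 10.74 and 10.52 in controls and 11.22, 11.39 and 10.95 in knockdown arrays (0.46 ± 0.21, adjusted p = 0.322), and Cebpa read 7.91, 8.04 and 7.98 in controls and 8.44, 8.57 and 8.35 in knockdown arrays (0.48 ± 0.49, adjusted p = 0.721). Neither passed, although the groups did not overlap; both were named after their values were seen. None of 27 mature adipocyte markers passed by limma (3 without adjustment, 1 with the replicate block), and their median was 0.19. Adipoq, the adiponectin gene, was the furthest, with 5.73, 4.48 and 3.15 in controls and 7.29, 7.47 and 2.30 in knockdown arrays (1.23 ± 1.13, adjusted p = 0.673). Its groups overlapped through knockdown array 3, and array 3 was the lowest of both groups. The same-number differences of Adipoq were 1.56, 2.99 and -0.85. Without knockdown array 3 its log2 fold change was 2.93, and it was the 1 marker called higher (1.19% of all genes were). Without both arrays numbered 3 no marker passed. The median of the markers was 0.28 and 0.295 in these 2 fits. The list mean of the adipocyte markers ran from 6.72 to 7.12 in controls and from 6.81 to 7.46 in knockdown arrays. Of 24 fatty acid oxidation genes and 22 cholesterol genes none passed by limma (4 and 2 without adjustment, 2 and 2 with the block), the largest differences being in Hadha (0.54 ± 0.17, adjusted p = 0.15, and 0.0341 with the replicate block) and Abcg1, a sterol exporter gene (1.00 ± 0.26, adjusted p = 0.0727, and 0.0465 with the replicate block). Glycolysis genes had 17 of 18 values below 0 and a median of -0.21 with 0 called by limma (5 without adjustment, 0 with the block), the phosphofructokinase gene Pfkl being among the furthest at -0.59 ± 0.16, adjusted p = 0.0975. The respiratory chain list had 29 of 40 above 0, 14 with all knockdown values above the controls (6.89% of all genes), a median of 0.09 and 0 called by limma (1 without adjustment, 1 with the block), the cytochrome oxidase subunit gene Cox8a having 0.45 ± 0.12, adjusted p = 0.0965, and 0.0375 with the replicate block. With arrays shifted to 1 median over genes and over all probe sets, the glycolysis median was -0.05 and -0.28 and the respiratory chain median 0.26 and 0.02.

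Stress and secretory pathway genes had a few well-separated falls. Of 38 genes of the unfolded protein response and ATF4 targets 2 fell, Fgf21 and Edem1, which directs misfolded glycoproteins to degradation. Edem1 read 9.62, 9.52 and 9.62 in controls and 8.67, 8.68 and 8.74 in knockdown arrays (-0.89 ± 0.09, adjusted p = 0.000588), with an SD of 0.06 and 0.03 in the 2 groups, and held without each array and with replicates 1 and 2 averaged. Its second probe set differed by -0.31 and did not pass (adjusted p = 0.241). Ero1a, the oxidase that drives disulfide formation in the endoplasmic reticulum and the called gene of 24 hypoxia targets, read 12.63, 12.61 and 12.64 in controls and 11.70, 11.85 and 11.86 in knockdown arrays (-0.82 ± 0.19, adjusted p = 0.0484). It lost its call without any 1 of the 6 arrays (adjusted p up to 0.158). These belong to 10 called genes of the endoplasmic reticulum and secretory transport, grouped after their values were seen, which were all lower: the translocon-associated gene Serp1 (-0.41), the coat GTPase gene Sar1b (-0.63), the fusion protein gene Sec22b (-0.32), Ier3ip1 (-0.92) and the degradation factor gene Erlin2 (-0.73) are among them. Membership was settled by the calls, so this count describes the calls only. Of all calls 74.1% were lower as deposited, and 29.8% with arrays shifted to 1 median over genes. Serp1 and Sec22b lost their calls without any 1 array other than knockdown array 3 (up to 0.174), and Sec22b with the replicate block (0.0677). Of 20 glucocorticoid-responsive genes 1 rose, the glutamine synthetase gene Glul (0.71 ± 0.16, adjusted p = 0.0471, and 0.0669 with the replicate block), and 1 fell, the metallothionein gene Mt2 (-0.60 ± 0.14, adjusted p = 0.0499, and 0.0627 with the replicate block). Glul lost its call without any 1 array other than knockdown array 3 (adjusted p up to 0.184) and Mt2 without controls 1 or 2 or knockdown arrays 1 or 2 (adjusted p up to 0.183). None of 26 NRF2 and oxidative stress genes and none of 31 immediate early genes passed by limma (3 and 3 without adjustment, 1 and 2 with the block). The immediate early list had a median of -0.23, which ran from -0.11 without knockdown array 1 to -0.43 without knockdown array 3 and was -0.06 with arrays shifted to 1 median over genes. It was -0.33 without both arrays numbered 3, where 1 member fell (1.41% of all genes did). Nr4a2, a nuclear receptor of that class, read 8.32, 8.03 and 9.10 in controls and 7.70, 7.59 and 7.61 in knockdown arrays (-0.85 ± 0.22, adjusted p = 0.0765).

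The 10 called genes with the highest control level were all lower, a ranking that favours falls. By the mean over both groups the called rises Glul and Lgr4 lie above Plod1, Ptdss1 and Rap1a of these 10. Beside Trp53inp2, Mt2, Ero1a, Igfbp4 and Plod1 they were Oxct1, which lets cells burn ketone bodies (-0.67 ± 0.15, adjusted p = 0.0434), the phosphatidylserine synthase gene Ptdss1 (-0.58 ± 0.10, adjusted p = 0.0142), the small GTPase genes Rala (-0.45 ± 0.09, adjusted p = 0.0344) and Rap1a (-0.36 ± 0.08, adjusted p = 0.0355), and Sfr1, a cofactor of recombination (-0.42 ± 0.09, adjusted p = 0.0355). Of these last genes, Oxct1, Rala, Rap1a and Sfr1 lost the call without any 1 array other than knockdown array 3 (adjusted p up to 0.153), and Ptdss1 without controls 1 or 2 or knockdown array 2 (adjusted p up to 0.0707). With the most variable probe set Rala was -0.20 (adjusted p = 0.63) and Rap1a -0.18 (adjusted p = 0.502), and with the mean over probe sets neither passed (adjusted p = 0.37 and 0.106). Nova1, a splicing factor named for its low adjusted p, read 8.57, 8.40 and 8.55 in controls and 7.15, 7.26 and 7.09 in knockdown arrays (-1.34 ± 0.13, adjusted p = 0.000306).

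Over the 59 gene lists examined, 54 of 1613 distinct genes were called, 11 higher and 43 lower. No member was called in 23 lists, 26 held falls only, 5 held rises only and 5 held both. The lowest medians were those of the mitosis (-0.80), interferon (-0.62), S phase (-0.39) and contractile (-0.27) lists, which stayed below 0 with each shift to a common median. The highest was that of the mature adipocyte markers (0.19), which stayed above 0 but was 0.06 without control 3 and 0.08 without knockdown array 2, below the adipogenic transcription factors in those fits (0.10 and 0.14). The median of the adipocyte markers was 0.28 without knockdown array 3 and 0.295 without both arrays numbered 3. The other lists had medians from -0.24 (endothelial markers) to 0.12 (adipogenic transcription factors), and a small negative median could turn with the scaling, as that of the hypoxia targets did (-0.16, and 0.01 with arrays shifted to 1 median over genes). Of the signalling lists none of 25 Notch, 18 hedgehog and 27 insulin signalling genes passed by limma (3, 5 and 3 without adjustment, 1, 0 and 0 with the replicate block), and neither did any of 26 complement and acute phase genes (4 without adjustment, 2 with the block). Without both arrays numbered 3, 2 complement and acute phase genes were called higher (0.627% of all genes were).

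**Figure D4:**
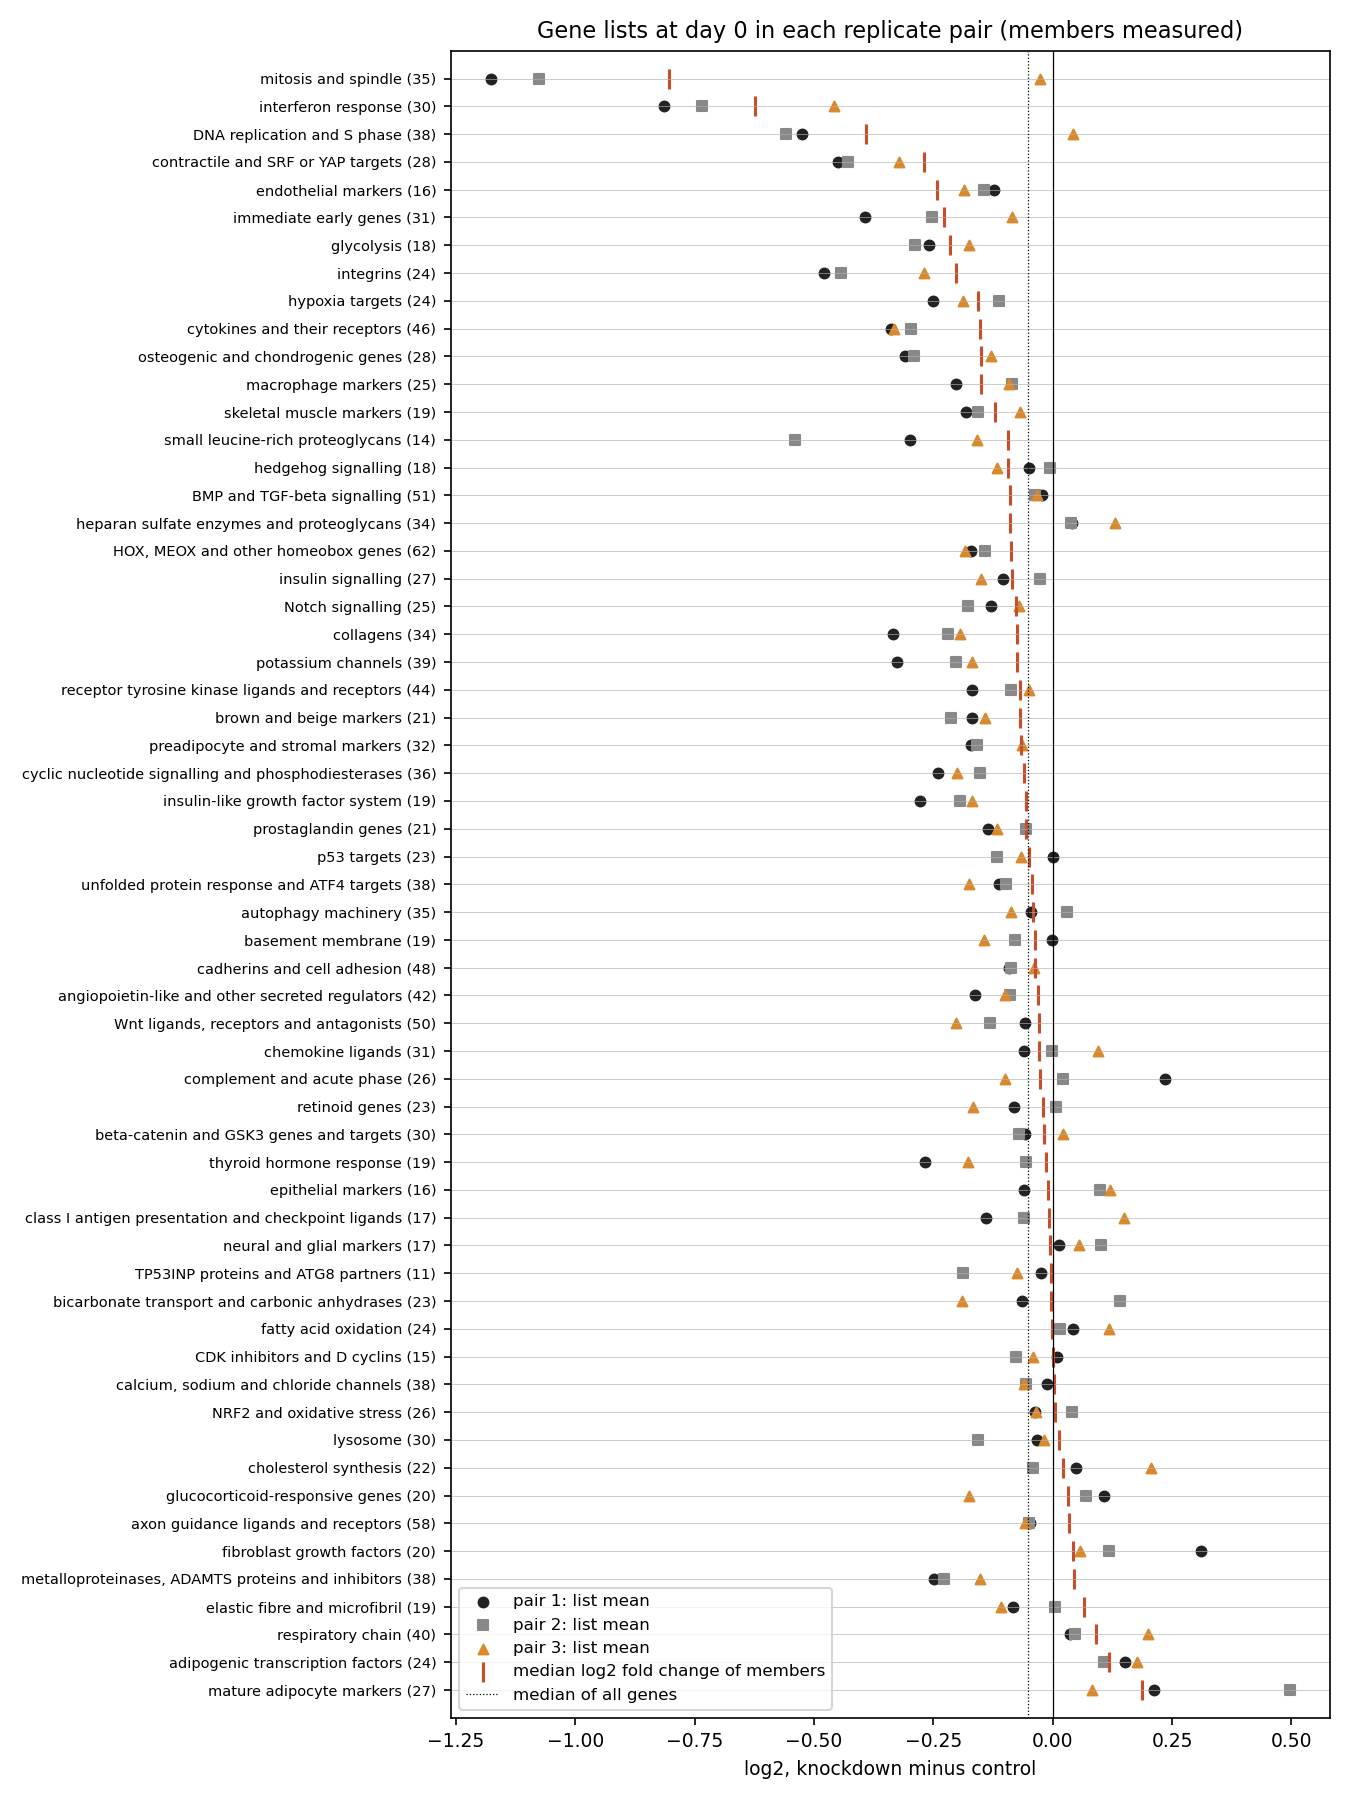
Mean difference of each gene list between the knockdown array and the control array of the same number (x axis, log2), for pairs 1 (circles), 2 (squares) and 3 (triangles), with a bar at the median log2 fold change of the members and a dotted line at the median of all genes (-0.05); the number of genes measured follows each name. Pair 3 sits apart from pairs 1 and 2 for mitosis and spindle (-0.03 against -1.18 and -1.08) and S phase genes (0.04 against -0.53 and -0.56), and on the same side for interferon response genes.

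The labelled cell type was checked against markers. Preadipocyte and stromal markers were high, with a median at percentile 81.7 of control levels and a list mean of 9.12 to 9.25 in controls and 9.06 to 9.09 in knockdown arrays. Pdgfra, the receptor that marks fat precursors, read 12.57, 12.50 and 12.70 in controls and 12.60, 12.50 and 12.60 in knockdown arrays, and Dlk1, a preadipocyte factor, read 13.32, 13.24 and 13.55 in controls and 13.25, 13.10 and 13.37 in knockdown arrays. None of the 32 stromal markers passed by limma (3 without adjustment, 4 lower with the replicate block, where 3.4% of all genes were). The furthest was Fap, a fibroblast protease gene (-1.70 ± 0.62, adjusted p = 0.2, and 0.0189 with the replicate block). Mature adipocyte markers lay between, with a median at percentile 41 and 12 of 27 genes in the brighter part of the array. Markers of the other cell types were low: the median percentile was 31.7 for macrophage, 22.1 for endothelial, 26.7 for epithelial, 18.8 for skeletal muscle and 23.6 for neural and glial markers, and none of these genes passed by limma (4, 3, 2, 0 and 3 without adjustment; 0, 0, 0, 0 and 1 with the replicate block). The macrophage defining genes Adgre1 and Ptprc read at most 2.82 and 3.55 on any day 0 array. The macrophage list mean was 4.68 to 4.74 in controls and 4.54 to 4.63 in knockdown arrays, with 3 of its 25 genes in the brighter part of the array, while Csf1r read 8.90, 7.27 and 8.56 in controls and 9.55, 9.05 and 8.83 in knockdown arrays and Mpeg1 9.58, 8.47 and 9.13 in controls and 7.49, 7.85 and 9.07 in knockdown arrays. These levels stand beside the changes in Ccl6, Sirpa, Il7r and Cd300lb, genes best known from blood cells. No detection calls were used, so no gene was taken as absent.

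At day 7, on separate arrays of 4 control and 4 knockdown samples, 115 of the 328 day 0 genes were called in the same direction, which is 35.1% of the day 0 calls and 9.61% of the 1197 day 7 calls (6.58% of all genes). Of the 243 genes that fell at day 0, 95 also fell at day 7 (3.57% of all genes did) and 197 had a value below 0, where 52.9% of all genes did, the median going from -0.92 to -0.40. Of the 85 that rose, 20 rose at day 7 (3.01% of all genes did), 70 had a value above 0, where 47.1% of all genes did, and the median went from 0.94 to 0.22. Genes chosen for passing at day 0 have their day 0 sizes raised by that choice, so the smaller day 7 medians are given with no test. Klhl4 (-3.58), Meox2 (-3.27), Il7r (-3.22) and Slc22a22, an organic anion transporter gene (-2.82), fell at both days, and Popdc3 (3.00), Slc4a4 (2.06) and Rftn1, the lipid raft gene (1.79), rose at both. The day 0 call of Slc22a22 was lost without any 1 array other than knockdown array 3 (adjusted p up to 0.15) and that of Rftn1 without controls 2 or 3 or knockdown array 2 (adjusted p up to 0.0704). Bst1, described next, lost its day 0 call (-2.65 ± 0.54, adjusted p = 0.03) without any 1 array other than knockdown array 3 (adjusted p up to 0.113) and with the mean over probe sets (-2.04, adjusted p = 0.0872). Crabp1 (0.09), Bst1, an ectoenzyme gene that makes cyclic ADP-ribose (0.11), and Bambi (0.04) had day 7 values that did not pass, as did the rises Vstm2a (0.59), Elfn1 (0.38) and Ccl6 (0.32).

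**Figure D5:**
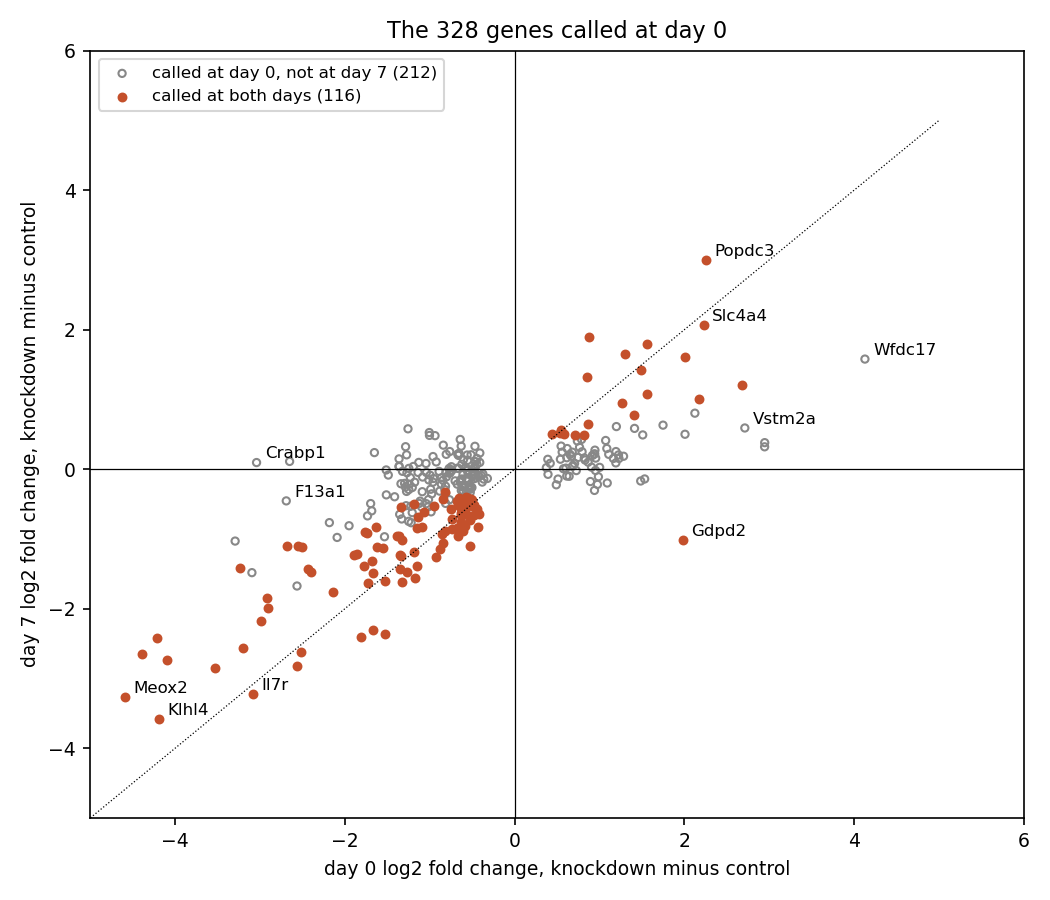
Log2 fold change, knockdown minus control, at day 0 (x axis) and at day 7 (y axis) for the 328 genes called at day 0; filled points were called at both days (116) and open points at day 0 and not at day 7, and the dotted line marks equal values. Most genes keep their sign, Klhl4 and Il7r lie near the line, and Gdpd2 is the gene called in opposite directions (1.98 and -1.02).

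The difference between the day 0 and day 7 effects was itself tested, and 4 genes passed (0.022% of genes; 2403 without adjustment). Gdpd2, a glycerophosphodiester phosphodiesterase gene, rose at day 0, with 7.87, 7.97 and 8.20 in controls and 10.29, 10.39 and 9.30 in knockdown arrays (1.98 ± 0.32, adjusted p = 0.00806), and fell at day 7 by 1.02 (adjusted p = 0.0453). Edem1 fell at day 0, and had a day 7 value of -0.03 (adjusted p = 0.862). Ehhadh, a peroxisomal fatty acid oxidation gene, was near the bottom of the scale at day 0, with 2.90, 3.33 and 2.73 in controls and 2.79, 2.78 and 3.04 in knockdown arrays (-0.12 ± 0.16, adjusted p = 0.81), and rose by 2.23 at day 7 (adjusted p = 2.07e-05). Cd274, the gene of the checkpoint ligand PD-L1, read 7.16, 7.25 and 7.13 in controls and 6.85, 6.75 and 7.09 in knockdown arrays at day 0 (-0.28 ± 0.20, adjusted p = 0.565) and rose by 1.66 at day 7 (adjusted p = 0.000471). With replicates 1 and 2 averaged 0 passed (1159 without adjustment), and with the replicate block 196 did. The count without single day 0 arrays ran from 1 to 218, the highest being without knockdown array 3.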

How the data were processed

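RNA of 3T3-L1 cells was amplified, biotin-labelled and hybridised to 14 mouse expression arrays, of which 6 are the day 0 arrays described here. The authors deposited log2 expression values for each probe set, which the submitters' processing notes trace to RMA with the affy package. No versions of these are stated. The values were used as deposited, and their number of arrays limits the precision. Of 45101 probe sets, 64 control probe sets were left out, 34945 carried 1 gene symbol, 932 several and 9160 none. Each of 18193 genes was represented by the probe set with 1 symbol and the highest mean over all 14 arrays, and 18032 of the symbols were found in RefSeq's gene table.

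The 4 group means (control and knockdown at day 0 and day 7) were fitted by lmFit and eBayes (limma 3.58.1 under R 4.3.3), and p-values were adjusted over all genes by the Benjamini-Hochberg method. The script was tested on simulated data. Python 3.11.15, pandas 2.3.3, numpy 2.4.6 and matplotlib 3.10.9 made the summaries and plots. The replicate numbers come from the labels. Deviations of control and knockdown arrays of the same number from their day 0 group means correlated at 0.21, 0.19 and 0.33, against -0.28 to 0.15 for different numbers. The numbers were therefore taken to pair the samples, and fits with the replicate number as a block were run as alternatives. Numbers 1 and 2 were hardly told apart, since control 2 correlated at 0.19 with knockdown array 2 and at 0.15 with knockdown array 1. Deviations within a group sum to 0, so the correlations are not independent. The pairing was thus read from the values that the block fits use. Other alternatives were day 0 arrays alone, replicates 1 and 2 averaged, 2 shifts to a common median, quantile normalization, no dim genes (the lowest 40% left out), other ways to represent a gene, an intensity trend, array weights and each array left out.

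Genes named by rule were the 20 largest falls and 15 largest rises among calls, the 10 brightest calls, the 5 lowest adjusted p-values, up to 6 called members of each list or, where a list had none, its 2 furthest members, and the 5 genes with the lowest adjusted p for the difference between days (the fifth, Gulp1, from a tie). Any other gene is said to be named after its values were seen. The members and the gene lists were chosen with earlier results of these data known, so they are descriptions and no list has a test of its own.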

Additional observations from a re-analysis of the deposited data

Results flagged for a closer look

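The knockdown effect differed between day 0 and day 7 in 4 genes by limma's test of that difference over all 18193 genes. The difference, day 0 minus day 7 on the log2 scale, was 3.00 for Gdpd2 (adjusted p = 0.047; day 0 effect 1.98, day 7 effect -1.02), -0.86 for Edem1 (adjusted p = 0.047; -0.89 and -0.03), -2.34 for Ehhadh (adjusted p = 0.00168; -0.12 and 2.23) and -1.95 for Cd274 (adjusted p = 0.047; -0.28 and 1.66). For Gdpd2 and Edem1 the 3 day 0 differences between same-number arrays all had the sign of the day 0 effect. F13a1, Vstm2a and Gulp1, an engulfment adaptor gene, shared an adjusted p of 0.0529 and did not pass. With replicates 1 and 2 averaged none of the 4 passed.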

How the results depend on the processing

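The genes called higher (85) and lower (243) at day 0 numbered 48 and 159 with day 0 arrays alone, 160 and 412 with the replicate block over both days, 225 and 619 with the replicate block within day, 5 and 19 with replicates 1 and 2 averaged, 262 and 111 with arrays shifted to 1 median over genes, 531 and 1221 with array weights, and 791 and 469 with every probe set tested. Rises were 134 without the dimmest 40% of genes, 206 with the most variable probe set and 129 with the mean over probe sets. Falls were 439 with arrays shifted to 1 median over all probe sets, a setting chosen after seeing the data, and 125 after quantile normalization. Without single arrays rises ran from 22 to 216 and falls from 79 to 415. Genes whose effect differed between days numbered 26 and 196 with the block over both days and within day, 0 with replicates averaged (limma; 1159 unadjusted), 13 with the gene median shift, 1 after quantile normalization, 57 without dim genes, 12 with the most variable probe set, 8 with an intensity trend, 1663 with array weights and 1 to 218 without single arrays. Trp53inp2 did not pass with replicates averaged (-1.06) or with the mean over probe sets (-0.48). Trp53inp1, not called, turned to 0.11 with the gene median shift, 1.01 with the most variable probe set, 0.48 with the mean, 0.054 with array weights and 0.10 without both arrays numbered 3, and ran from -0.12 to 0.074 without single arrays. The most variable probe set turned Wipi2 (-0.15), Kcnma1 (0.50) and Mef2c (0.11, not called), and Ehhadh turned to 0.048 with the gene median shift and ran from -0.24 to 0.056 without single arrays. The causes were not tested. Of 81 genes named by rule and called at day 0 besides Trp53inp2, 77 kept the call with the block within day, 64 after quantile normalization, 64 with the gene median shift, 51 with day 0 arrays alone, 76 with the block over both days, 70 with the mean over probe sets, 68 with the most variable probe set (2 others reversed), 56 without both arrays numbered 3, 17 with replicates averaged and 41 to 72 without single arrays. Beside those given in the report, Ero1a, Glul, Mfap5, Mt2 and Sfr1 did not pass with the most variable probe set, Ero1a, Glul and Lgr4 with the mean, and Ramp3, Oxct1, Hoxc4, Glul and Efna5 with the block over both days. Of the genes given as passing with the block within day, Cenpf, Hadha, Cox8a and Pdia3 did not pass with the block over both days. Beyond those named in the report, the block within day ended no call of these 81. Of the 59 list medians, 52 moved by more than the replicate SD with the gene median shift. Values near the bottom of the scale limit what dim genes can show, and 3 arrays a group limit all.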
